A study of Arabidopsis thaliana with 14 samples.

Results

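Routes that remove auxin from the active pool of Arabidopsis thaliana cells include its joining to amino acids and its oxidation. The 5 genes described here serve these routes and were taken by name: WES1 (also called GH3.5, probe set 253908_at), GH3.3 (245076_at) and GH3.17 (259596_at) for conjugation, and AT1G14130 (DAO1, 262653_at) and AT1G14120 (DAO2, 262608_at) for oxidation. Their probe sets are 5 of the 13513 to which the annotation used here gives exactly 1 gene, and each gene is read by 1 probe set. A further 8730 probe sets are given no gene, so genes without a named probe set may still be on the array.

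GH3 proteins are acyl amido synthetases that join indole-3-acetic acid, the main natural auxin, to amino acids. Conjugates with aspartate or glutamate are regarded as steps towards disposal, whereas some other conjugates can be hydrolysed back to free auxin. DAO enzymes are dioxygenases of the oxidation route, in which the inactive product 2-oxindole-3-acetic acid is formed. In the root tip, auxin is high around the stem cell niche, and cytokinin is known to limit the size of the meristem; GH3.17 has been described as a target of the cytokinin response regulator ARR1 in the lateral root cap. The comparisons below ask how these auxin-removing genes stood after a line with an estradiol-inducible construct received estradiol or a cytokinin.

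RNA came from the first 5 mm of primary root tips of 7-day-old seedlings of a single line, AtIPT8/pga22 in the Wassilewskija background, and was read on 14 Affymetrix ATH1 arrays. All 14 arrays carry the same genotype, which the labels describe as a T-DNA insertion mutant of IPT8; the pga22 construct is known as an estradiol-inducible source of this cytokinin-synthesis gene. Seedlings received liquid medium on their plates, either alone (control) or holding trans-zeatin, a natural cytokinin, or 17-beta-estradiol, each at 5 µM. There were 3 control and 3 estradiol arrays at 12 h, 2 trans-zeatin arrays at 12 h, and 2 arrays of each of the 3 treatments at 24 h. No line without the construct was treated, so an effect of estradiol itself and an effect of the induced gene cannot be told apart, and the level of IPT8 was not analysed here.

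Values are linear signal intensities with the same trimmed mean of 100 on every array, and changes are differences of log2(signal + 6.3), so folds of dim signals are understated. A probe set was called where limma gave an adjusted p under 0.05 (Benjamini-Hochberg over 15605 probe sets) against the control of the same time. The labels do not say whether replicates came from separate cultures, so p-values measure the spread between these samples only. Both treatments at one time share their control arrays. A pair of 12 h arrays, replicate 1 of estradiol and replicate 3 of control, lay away from the rest of their groups over all probe sets, and the results below that change most with them are also given without them. RNA quality moved with treatment: the 3'/5' signal ratio of the actin control probe sets was 3.24 to 4.93 in control and 2.37 to 3.31 in treated arrays at 12 h, and 6.24 to 6.44 in control and 3.71 to 4.85 in treated arrays at 24 h. The array count, 2 or 3 a group, limits the precision of every value.

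All 5 genes exceeded the low-signal limit of 23 on all 14 arrays. DAO2 rose in each of the 4 comparisons with control, by 3.71-fold to 8.91-fold. WES1 fell with estradiol at 12 h, by 1.88-fold, and was lower in the mean over the 4 comparisons, in which 9.48% of all probe sets fell. DAO1, GH3.3 and GH3.17 passed the test in none of the 4 comparisons. Thus 1 of the 5 genes rose and 1 fell with estradiol at 12 h, where 2.36% of all probe sets rose and 2.52% fell. At trans-zeatin 12 h, estradiol 24 h and trans-zeatin 24 h, 1 of the 5 rose and none fell, against 3.21%, 2.28% and 2.15% of probe sets that rose and 4.33%, 1.53% and 1.32% that fell. An unadjusted p under 0.05 was given to 3, 3, 2 and 2 of the 5 genes in these 4 comparisons, in the order given, and to 20.8%, 23.3%, 18.3% and 17.3% of all probe sets. The other comparisons, between treatments, between times and of effects between times, called 0 of the 5 genes with limma. Over all probe sets they called 0.00641% and 0.0449% between treatments at 12 h and 24 h, 0.468%, 0.513% and 0.32% between times in control, estradiol and trans-zeatin, and 0.0769% and 0.0% as estradiol and trans-zeatin effects that differed between times. An unadjusted p under 0.05 was given to 1, 1, 1, 1, 0, 2 and 0 of the 5 genes in these comparisons, in the same order, and to 8.47%, 5.72%, 15.0%, 9.77%, 11.4%, 8.48% and 9.53% of all probe sets. The median log2 change of the 5 genes against control was 0.24, 0.49, 0.43 and 0.23, beside medians of -0.0, -0.03, -0.09 and -0.06 over all probe sets.

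**Figure D1:**
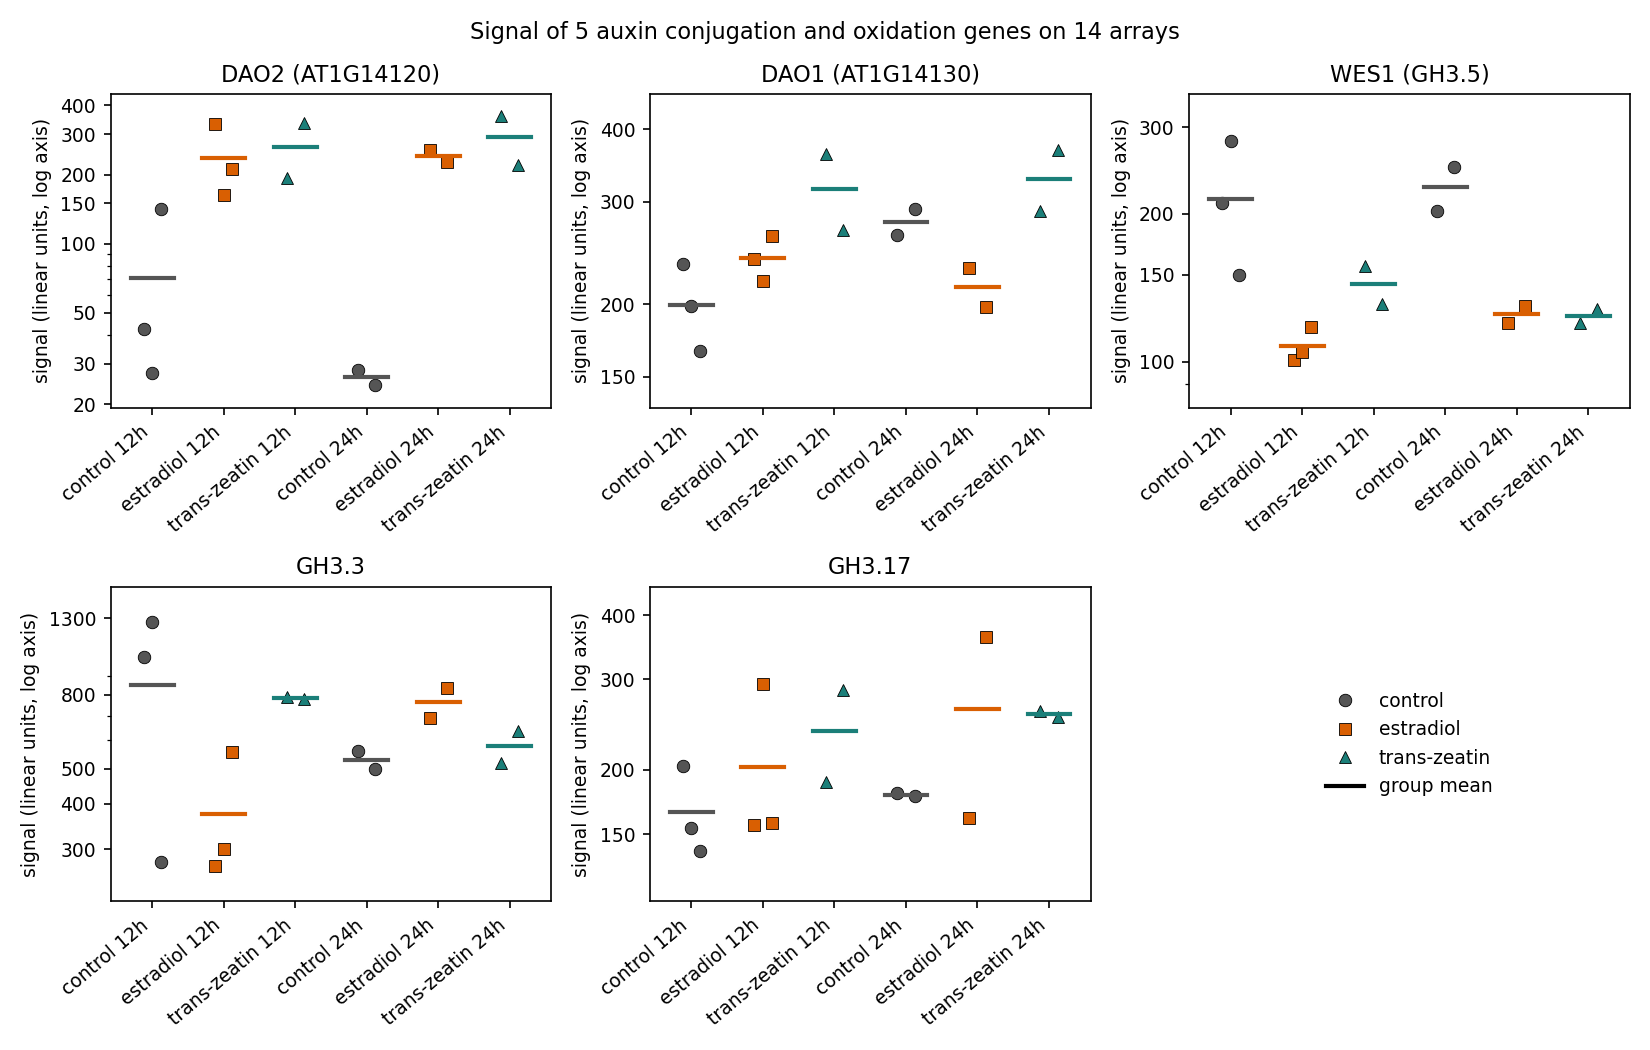
Signal of each gene on every array (linear units on a log axis) by group; symbols are arrays and lines are group means. For DAO2 all 9 treated arrays, at 163.6 to 360.7, lie above all 5 control arrays, whereas for GH3.3 and GH3.17 treated and control arrays, taken over both times, overlap.

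The oxidation genes come first. DAO2 (AT1G14120) gave signals of 42.6, 27.4 and 141.8 in the control arrays at 12 h and of 28.2 and 24.1 at 24 h. With estradiol it gave 333.0, 163.6 and 210.4 at 12 h and 254.9 and 227.7 at 24 h. With trans-zeatin it gave 193.3 and 335.3 at 12 h and 360.7 and 220.9 at 24 h. Every treated array was above every control array, a separation upward that 2.15% of all probe sets showed. The control arrays at 24 h were close to the low-signal limit of 23, and control 12 h replicate 3 was the one control array far above it.

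On the log2 scale the DAO2 change was 1.89 ± 0.43 (SE; 3 arrays against 3) with estradiol at 12 h, with a limma adjusted p of 0.022. With trans-zeatin at 12 h it was 2.06 ± 0.48 (2 against 3; limma adjusted p = 0.02). At 24 h, with 2 arrays against 2, it was 2.93 ± 0.53 with estradiol (7.63-fold; limma adjusted p = 0.0059) and 3.16 ± 0.53 with trans-zeatin (8.91-fold; limma adjusted p = 0.0037). Among probe sets ranked by upward change, DAO2 stood at rank 52, 49, 33 and 21 in these 4 comparisons. The mean of the 4 changes was 2.51 ± 0.30, or 5.7-fold, with a limma adjusted p of 7.3e-05, in a comparison in which 7.16% of probe sets rose and 9.48% fell.

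The DAO2 calls at single times were sensitive to which arrays entered, while the size of the change moved less. Both 12 h calls ended when only the 12 h arrays were fitted. With estradiol at 12 h the change was 1.72, 1.45, 1.62 and 1.94 without control 12 h replicate 1, control 12 h replicate 2, estradiol 12 h replicate 1 or estradiol 12 h replicate 3, with adjusted p of 0.086, 0.079, 0.073 and 0.052. With trans-zeatin at 12 h it was 1.89, 1.62 and 1.68 without control 12 h replicate 1, control 12 h replicate 2 or trans-zeatin 12 h replicate 2, with adjusted p of 0.068, 0.057 and 0.21. At 24 h it was 2.84 for estradiol without control 24 h replicate 2 (adjusted p = 0.061) and 2.81 for trans-zeatin without trans-zeatin 24 h replicate 1 (adjusted p = 0.068). The mean over the 4 comparisons was 2.29 to 2.82 and was called with each array left out. Without control 12 h replicate 3, the bright control array, the 12 h changes were 2.52 with estradiol and 2.69 with trans-zeatin. The direction was upward under all 26 alternatives run for each comparison.

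The size of the DAO2 change did not differ detectably between the treatments. Estradiol minus trans-zeatin was -0.17 ± 0.48 at 12 h (95% confidence interval -1.20 to 0.86; limma adjusted p = 0.95) and -0.22 ± 0.53 at 24 h (-1.35 to 0.90; limma adjusted p = 0.99). These intervals span differences of about the size of 1 doubling in either direction, so they do not show that the treatments acted alike. No difference of the DAO2 change between times passed the test: the change at 24 h minus that at 12 h was 1.04 ± 0.68 with estradiol (limma adjusted p = 0.73) and 1.09 ± 0.71 with trans-zeatin (limma adjusted p = 0.65), and 0.42 and 0.47 without control 12 h replicate 3. The control groups, 24 h minus 12 h, were at -0.95 ± 0.48 (limma adjusted p = 0.38), or -0.33 without that array, and the estradiol and trans-zeatin groups at 0.09 and 0.15. Ordered by mean signal, trans-zeatin 24 h (291), trans-zeatin 12 h (264), estradiol 24 h (241) and estradiol 12 h (236) overlapped from one to the next. The mean of estradiol 12 h was 3.34-fold that of control 12 h (70.6). Arrays of these groups did not overlap but came close, with 163.6 the lowest under estradiol and 141.8 the highest in control. Control 12 h overlapped with control 24 h (26.2).

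DAO1 (AT1G14130), the neighbouring gene and the oxidase that is best studied in Arabidopsis, varied far less. Its signals were 234.2, 198.4 and 165.7 in control, 238.8, 219.0 and 262.1 with estradiol and 363.4 and 268.4 with trans-zeatin at 12 h. At 24 h they were 263.0 and 291.3 in control, 230.7 and 197.9 with estradiol and 289.0 and 368.9 with trans-zeatin. The highest array was 2.23-fold above the lowest. Both trans-zeatin arrays exceeded all 3 controls at 12 h, an upward separation that 17.6% of probe sets showed. Both estradiol arrays were below both controls at 24 h, a downward separation that 33.3% of probe sets showed. Both control arrays at 24 h exceeded all 3 at 12 h, as 22.4% of probe sets did, with a difference of 0.47 ± 0.19 (limma adjusted p = 0.27).

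The DAO1 log2 change was 0.27 ± 0.17 with estradiol (limma adjusted p = 0.41) and 0.65 ± 0.19 with trans-zeatin (limma adjusted p = 0.056) at 12 h. At 24 h it was -0.36 ± 0.21 (limma adjusted p = 0.39) and 0.23 ± 0.21 (limma adjusted p = 0.63). The trans-zeatin value at 12 h lay just outside the threshold: it was called when arrays were centred on their median (0.69, adjusted p = 0.039) and when the 25S rRNA signal was added to the model (0.89, adjusted p = 0.023). The 25S signal of trans-zeatin 12 h replicate 2 was 4413, against 88 to 718 on the other 12 h arrays, and its weight in that value was not tested. Estradiol and trans-zeatin arrays did not overlap at 24 h, where they differed by -0.60 ± 0.21 (unadjusted p = 0.013, limma adjusted p = 0.74). In that comparison 21.7% of probe sets had estradiol below trans-zeatin without overlap.

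**Figure D2:**
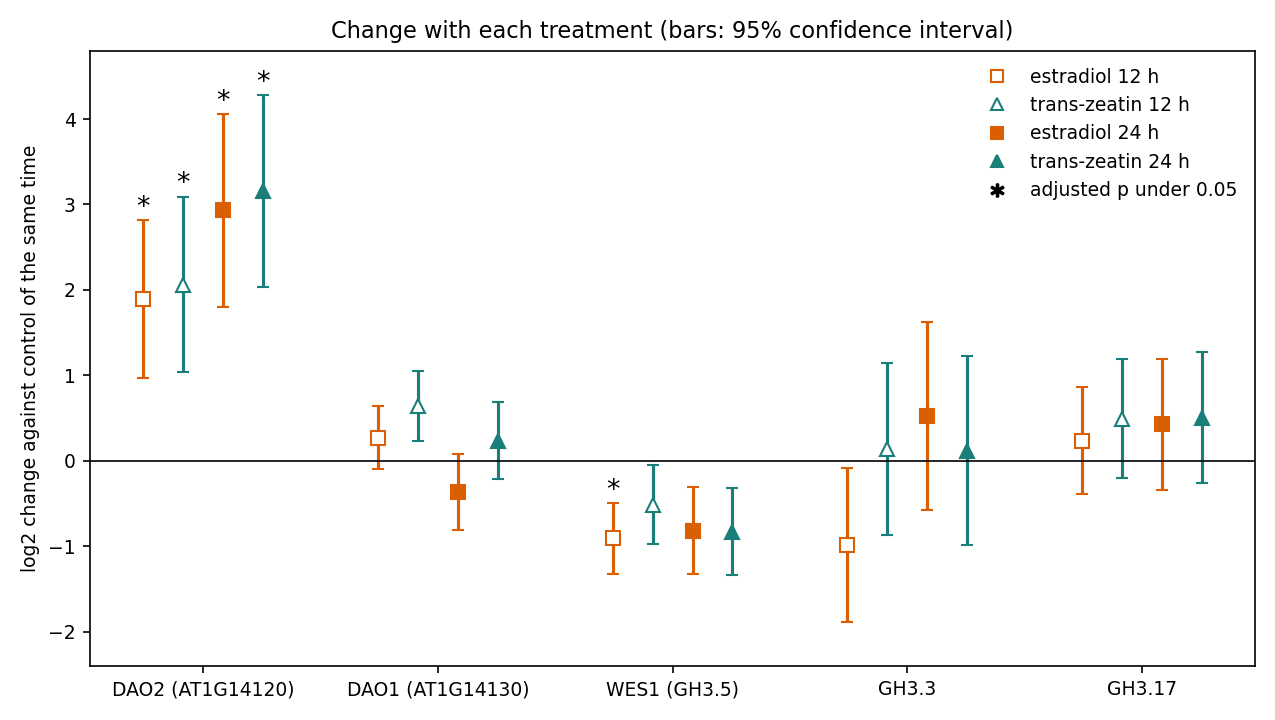
Log2 change of each gene against the control of the same time, with 95% confidence intervals from limma; open symbols are 12 h, filled symbols 24 h, and an asterisk marks an adjusted p under 0.05. All 4 DAO2 intervals lie above 0 and are called, and all 4 WES1 intervals lie below 0 with a single call, at estradiol 12 h.

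The unequal response of the DAO pair was tested within arrays, since levels of different probe sets cannot be compared but their changes can. The log2 signal of DAO2 minus that of DAO1 was -2.3, -2.60 and -0.22 in control at 12 h and -2.96 and -3.29 at 24 h. With estradiol it was 0.47, -0.41 and -0.31 at 12 h and 0.14 and 0.20 at 24 h, and with trans-zeatin it was -0.89 and 0.31 at 12 h and 0.31 and -0.72 at 24 h. Only control 12 h replicate 3 among the control arrays reached the range of the treated arrays. The treated arrays exceeded the controls of their time by 2.33 on average over both times, with p = 0.0048 in a two-sided exact permutation test over the 840 arrangements of arrays within times (the smallest possible p was 0.0012). Leaving out each array in turn gave 2.1 to 2.70 with exact permutation p from 0.0032 to 0.014. In the mean of both treatments and times the changes of DAO2 and DAO1 differed by more than the spread between arrays. The genes were chosen with earlier results of these data known, so the test is not independent evidence of an unequal response. This test takes no account of RNA quality. With the actin 3'/5' ratio in the limma model the mean changes were 1.91 for DAO2 and 0.23 for DAO1, and with the mean 3'/5' ratio of 3 control genes they were 1.23 and 0.46. Under the latter the order held at estradiol 12 h (0.91 and 0.47), estradiol 24 h (2.02 and -0.18) and trans-zeatin 24 h (1.77 and 0.52) and turned at trans-zeatin 12 h (0.23 and 1.02); the difference was not tested under these settings.

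**Figure D3:**
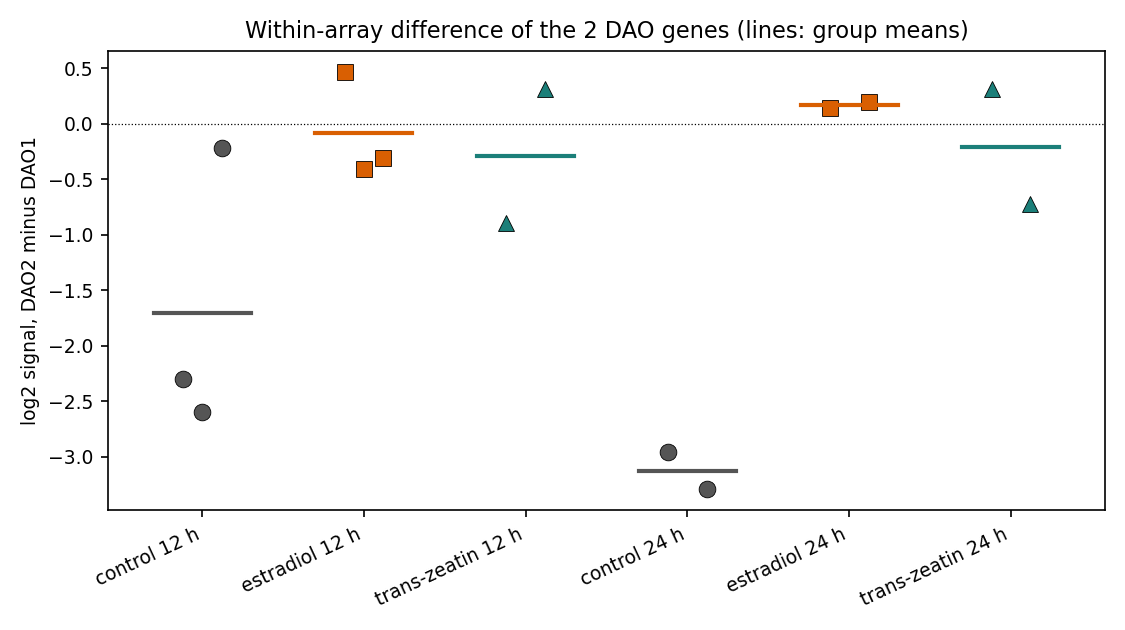
Difference of the log2 signals of DAO2 and DAO1 on each array; symbols are arrays and lines are group means. Control arrays lie at -3.29 to -0.22 and treated arrays at -0.89 to 0.47, with only control 12 h replicate 3 inside the treated range.

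Of the conjugation genes, WES1 moved downward. WES1 encodes GH3.5, a group II enzyme that acts on auxin and also on salicylic acid. It gave signals of 210.4, 280.8 and 150.3 in control at 12 h and 202.8 and 249.3 at 24 h. With estradiol it gave 100.7, 104.5 and 117.6 at 12 h and 119.9 and 129.5 at 24 h, and with trans-zeatin 156.4 and 131.1 at 12 h and 119.6 and 127.8 at 24 h. Of the 9 treated arrays, 8 were below all 5 control arrays. The exception, trans-zeatin 12 h replicate 1, exceeded control 12 h replicate 3 alone. The share of all probe sets with such a pattern was not counted, so how unusual it is cannot be told.

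The WES1 log2 change was -0.91 ± 0.19 with estradiol at 12 h (limma adjusted p = 0.016), and the 3 estradiol arrays did not overlap with the 3 controls, as in 13.7% of all probe sets in the downward direction. It was -0.51 ± 0.22 with trans-zeatin at 12 h (limma adjusted p = 0.17), -0.82 ± 0.24 with estradiol at 24 h (limma adjusted p = 0.072) and -0.83 ± 0.24 with trans-zeatin at 24 h (limma adjusted p = 0.075). The mean of the 4 was -0.77 ± 0.13, or 1.7-fold lower, with a limma adjusted p of 0.0016. In that comparison 9.48% of all probe sets fell, and WES1 stood at rank 492 by downward change. At 24 h both arrays of each treatment were below both controls, a downward separation shown by 33.3% of probe sets with estradiol and 31.9% with trans-zeatin. No difference of the WES1 change between times was detectable (0.09 with estradiol, limma adjusted p = 0.96; -0.32 with trans-zeatin, limma adjusted p = 0.78). The estradiol 12 h call ended without control 12 h replicate 1 (adjusted p = 0.056) or 2 (0.063). Without control 12 h replicate 3 all 4 WES1 comparisons passed, at -1.13, -0.74, -0.82 and -0.83 with adjusted p of 0.0028, 0.042, 0.027 and 0.025; without control 12 h replicate 2 the 24 h comparisons passed as well (0.044 and 0.043).

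GH3.3, another group II enzyme and a textbook early auxin-induced gene, was uneven among the control arrays. It gave 1014, 1267 and 276.0 in control at 12 h, so that control 12 h replicate 3 was more than 3-fold below the other arrays of its group. With estradiol at 12 h it gave 269.6, 300.4 and 556.0, and with trans-zeatin 785.5 and 777.6. At 24 h it gave 560.0 and 498.2 in control, 691.8 and 836.5 with estradiol, and 518.9 and 635.6 with trans-zeatin. Treated and control arrays overlapped in the estradiol 12 h and trans-zeatin comparisons, and both estradiol arrays were above both controls at 24 h, as in 19.8% of all probe sets.

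The GH3.3 log2 change with estradiol at 12 h was -0.98 ± 0.42 (unadjusted p = 0.035, limma adjusted p = 0.2). It turned on 1 array: without control 12 h replicate 3 it was -1.65 ± 0.25 (limma adjusted p = 0.0027), and without both arrays that stood apart it was -1.46 ± 0.24 (limma adjusted p = 0.0057). The other changes were 0.14 ± 0.47 with trans-zeatin at 12 h (limma adjusted p = 0.9; -0.53 without control 12 h replicate 3), 0.52 ± 0.51 with estradiol at 24 h (limma adjusted p = 0.63) and 0.12 ± 0.51 with trans-zeatin at 24 h (limma adjusted p = 0.94). The estradiol arrays lay below the trans-zeatin arrays at 12 h without overlap, by -1.12 ± 0.47 (unadjusted p = 0.032, limma adjusted p = 0.54), as did 8.91% of probe sets. The estradiol change differed between times by 1.5 ± 0.66 (unadjusted p = 0.04, limma adjusted p = 0.57), and by 2.17 without control 12 h replicate 3 (limma adjusted p = 0.059). Neither of the last pair of differences passed the test over all probe sets.

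GH3.17, the enzyme known for joining auxin to glutamate in Arabidopsis, gave 203.9, 154.4 and 138.8 in control at 12 h and 179.9 and 177.9 at 24 h. With estradiol it gave 156.3, 294.2 and 157.7 at 12 h and 161.2 and 363.0 at 24 h. With trans-zeatin it gave 189.6 and 286.0 at 12 h and 260.1 and 253.0 at 24 h. In each estradiol group a single array was high and the others were within or below the control range. Of the 9 treated arrays, 5 exceeded all 5 control arrays, a pattern whose share over all probe sets was not counted. Both trans-zeatin arrays were above both controls at 24 h, as 22.2% of all probe sets were.

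The GH3.17 log2 changes were all above 0 and within the spread between arrays: 0.24 ± 0.29, 0.49 ± 0.33, 0.43 ± 0.36 and 0.51 ± 0.36 for estradiol 12 h, trans-zeatin 12 h, estradiol 24 h and trans-zeatin 24 h, with limma adjusted p of 0.71, 0.4, 0.57 and 0.52. The mean was 0.42 ± 0.20 (limma adjusted p = 0.18). Without estradiol 24 h replicate 1 it was 0.56 with an adjusted p of 0.048.

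The other GH3 genes add little. Of 11 family members listed, 5 have a named probe set of their own and 3, the genes above, passed the low-signal filter; 0 of these 3 rose, and 1, WES1, fell, at estradiol 12 h. GH3.1 gave signals of 0.612 to 20.6 and GH3.9 of 4.55 to 15.8 over all arrays, below the limit of 23. The remaining family members, the 7 listed conjugate hydrolases, the 12 auxin transport genes and the 6 auxin receptor genes have no named probe set here and were not analysed. UGT74D1, which glucosylates auxin, was tested and not called, at -0.07, 0.02, -0.11 and -0.26 on the log2 scale in the 4 comparisons with control; UGT84B1 did not pass the filter. Of 13 listed auxin synthesis genes, YUC2 and YUC6, flavin monooxygenases of the main synthesis route, were tested and 0 were called. The mean change of YUC6 was 0.77 ± 0.34 (limma adjusted p = 0.14). Its size depends on the added constant, as YUC6 passed the low-signal filter through treated arrays alone. In the 5 control arrays YUC6 gave 5.65 to 22.6, below 23.

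Among auxin and cytokinin response genes, 3 of 28 listed Aux/IAA repressor genes were tested and 1, IAA30, rose: by 0.98 ± 0.24 with estradiol (limma adjusted p = 0.028) and 1.05 ± 0.26 with trans-zeatin (limma adjusted p = 0.029) at 12 h. At 24 h IAA30 was at 0.73 (limma adjusted p = 0.19) and 0.89 (limma adjusted p = 0.12). IAA18 and IAA34 were called in none of the 4 comparisons. Both type-A response regulators tested of 10 listed, which are rapidly induced by cytokinin, were higher: ARR16 rose by 2.63, 2.49, 3.16 and 2.89 in the 4 comparisons, with limma adjusted p from 1.7e-05 to 8e-05. Both probe sets passed the low-signal filter through treated arrays alone. ARR16 gave 5.25 to 11.6 and ARR15 0.976 to 13.7 in the 5 control arrays, all below 23, so the sizes of their changes depend on the added constant. Since both were tested only because treated arrays were high, their joint rise and p-values describe these arrays and are not support for a cytokinin response. ARR15 rose by 1.32 with estradiol at 12 h (limma adjusted p = 0.04) and by 2.35 and 2.41 at 24 h, and was at 1.29 with trans-zeatin at 12 h (limma adjusted p = 0.055). These lists are small here because most of their genes have no named probe set.

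Some of the listed marker genes of cell types were called against control as well. RCH1, a receptor kinase gene of the meristem and the one tested of 6 listed meristem genes, gave 57.3 to 80.4 in control and 25.5 to 45.1 in treated arrays. It fell with trans-zeatin at 12 h (-1.12, limma adjusted p = 0.017). With estradiol at 12 h (-0.81, limma adjusted p = 0.053) and with estradiol (-0.78, 0.14) and trans-zeatin (-0.82, 0.13) at 24 h it was lower but not called. The lateral root founder genes LBD16 and PUCHI, the 2 tested of 4 listed, fell at 24 h. With estradiol and trans-zeatin LBD16 fell by 1.30 and 1.59 and PUCHI by 1.66 and 2.22, with limma adjusted p from 0.0012 to 0.012. PUCHI also fell with trans-zeatin at 12 h. All PUCHI arrays of these treated groups were below 23, at 16.0 to 21.3 (estradiol 24 h), 5.47 to 17.8 (trans-zeatin 24 h) and 12.3 to 17.5 (trans-zeatin 12 h). The sizes of its falls thus depend on the added constant. The root hair genes EXP7 and EXP18 were called in none of the 4 comparisons, and no root cap gene listed has a named probe set. RCA, a leaf gene and the one tested of 5 listed, gave 64.1 to 1025 over all arrays and rose with estradiol at 24 h (2.64 ± 0.57, limma adjusted p = 0.019). It was not called with estradiol or trans-zeatin at 12 h (-0.23 and -0.13) or with trans-zeatin at 24 h (1.13). The 24 h controls, at 64.1 and 113.3, were below the 12 h controls, at 247.0 to 323.5. The estradiol 24 h arrays gave 310.0 and 1025, so the lower of them was within the range of the 12 h controls. Tissue was taken whole, so fewer cells of a type and less RNA per cell cannot be told apart, and the part of these markers in the DAO2 and WES1 changes was not tested.

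The values of both called genes were smaller in size once a 3'/5' ratio was added to the model. Adding the actin 3'/5' ratio to the model left DAO2 at 1.36 ± 0.57, 1.47 ± 0.64, 2.40 ± 0.64 and 2.39 ± 0.76 for estradiol 12 h, trans-zeatin 12 h, estradiol 24 h and trans-zeatin 24 h, with limma adjusted p of 0.3, 0.31, 0.11 and 0.28. WES1 was then at -0.63 with estradiol at 12 h (adjusted p = 0.28), and its mean change was -0.45 (adjusted p = 0.4). With the mean 3'/5' ratio of actin, GAPDH and ubiquitin, a setting chosen after the data were seen, DAO2 was at 0.91, 0.23, 2.02 and 1.77, of which only estradiol 24 h passed (adjusted p = 0.025). WES1 was then at -0.61 with estradiol at 12 h (adjusted p = 0.18) and at 0.05 with trans-zeatin at 12 h. When the 25S rRNA signal was added instead, the DAO2 call with trans-zeatin at 12 h ended (1.46, adjusted p = 0.12) and the other 3 DAO2 calls held. Trans-zeatin 12 h replicate 2 had the highest 25S signal of all arrays (4413), and its weight there was not tested. In these models the slope on the ratio comes from differences between arrays of the same group, over all 6 groups. At 24 h the actin ratios of treated and control arrays did not overlap, so the adjusted values there extend that slope. Among control arrays, control 12 h replicate 3 had the lowest actin ratio (3.235) and the highest DAO2 signal (141.8). Its weight in the slope was not tested.

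**Figure D4:**
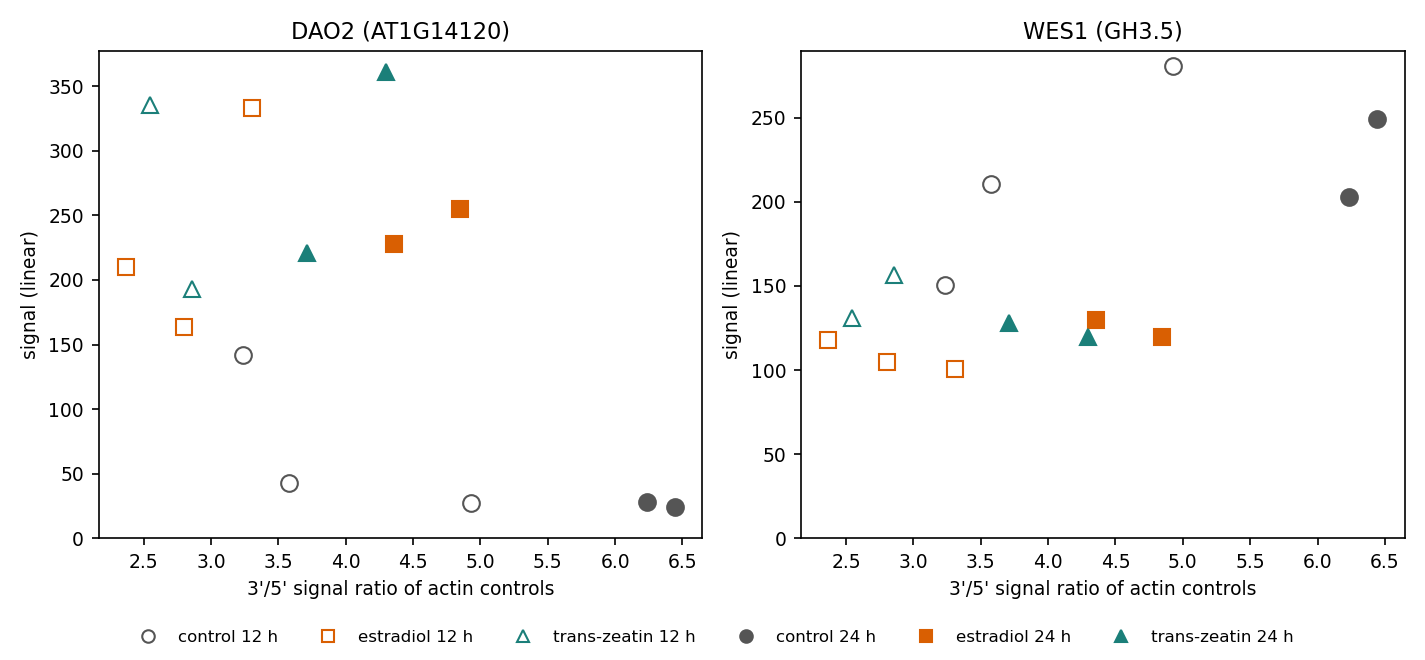
DAO2 and WES1 signal (linear) against the 3'/5' signal ratio of the actin control probe sets, 1 symbol per array; open symbols are 12 h and filled symbols 24 h. Control and treated arrays overlap slightly in this ratio at 12 h (3.24 to 4.93 and 2.37 to 3.31), and at 24 h the control ratios, 6.24 and 6.44, lie above the treated range of 3.71 to 4.85.

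**Figure D5:**
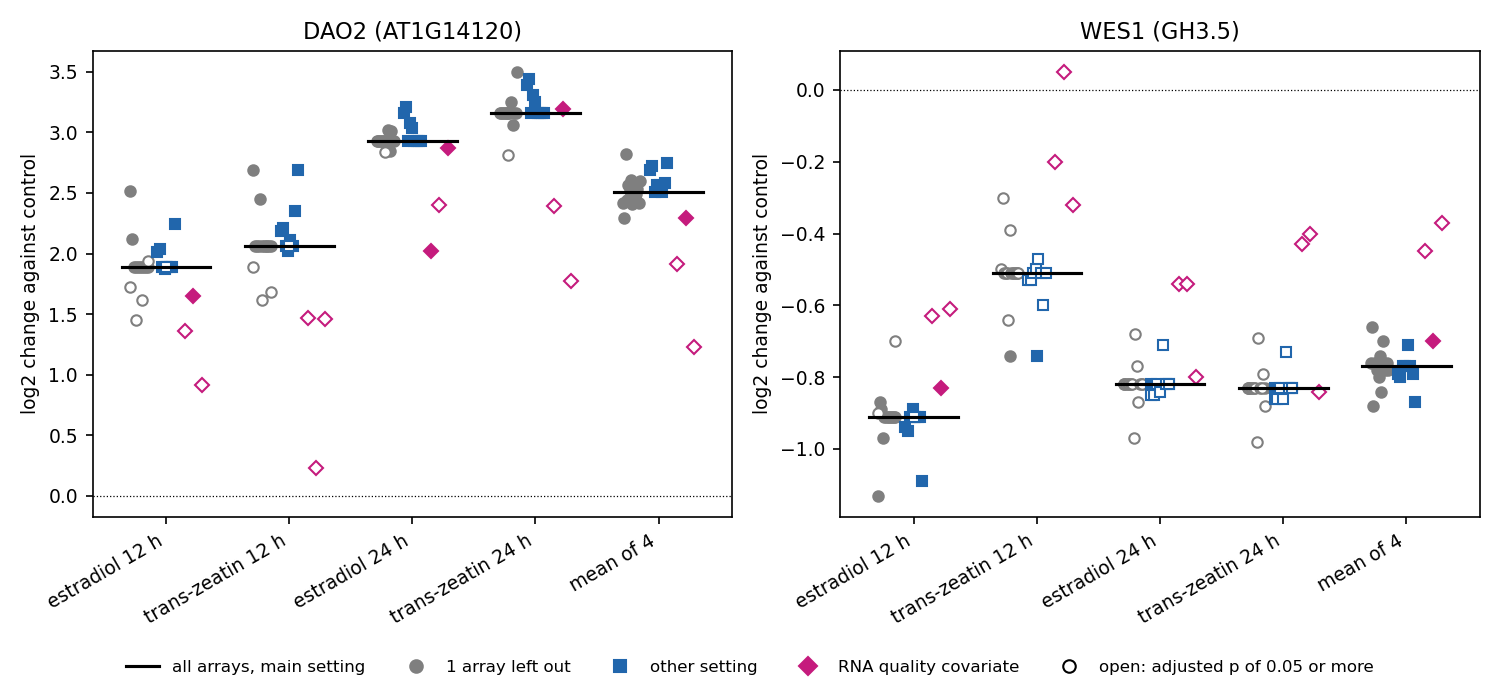
Log2 change of DAO2 and WES1 against control in the main setting (black line) and under every alternative, with open symbols where the adjusted p was 0.05 or more. DAO2 stays above 0 throughout, with its lowest value, 0.23, for trans-zeatin 12 h under a quality covariate, where WES1 reaches 0.05.

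The genes whose pattern over the 6 groups was most like that of a member were found by the root mean square difference of log2 group means, each centred on its own mean, among 8526 other genes. For DAO2 they were AT4G17470 (0.236), AT5G38020 (0.26) and NAMT1 (0.292), against a span of 3.16 in DAO2 itself. AT5G38020 had mean signals of 832 and 224 in control at 12 h and 24 h and of 1724 to 2533 in the treated groups. AT4G17470 and NAMT1 were dim, with control means of 2.3 to 11.9 and treated means of 34.4 to 62.1. For WES1, with a span of 1.02, they were MRL7-L (0.076), RALFL32 (0.085) and AT5G06610 (0.099). RALFL32 had mean signals of 582 and 595 in control and 304 to 341 in the treated groups. For GH3.3, with a span of 1.12, they were AT5G41870 and AT1G49170 (both 0.121) and PUB19 (0.137). AT5G41870 and AT1G49170 were dim, with group means of 9.2 to 26.0 and 11.0 to 31.2. Among the WES1 names MRL7-L was dim too, at 17.0 to 39.3. The likeness of dim genes depends on the added constant. These lists describe 6 group means that share arrays; with Pearson's correlation as the measure, 0 of 3, 0 of 3 and 2 of 3 names were the same for DAO2, WES1 and GH3.3.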

How the data were processed

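RNA from root tips was measured on 14 one-colour Affymetrix arrays in 6 groups taken from the labels. The authors deposited linear signal intensities made with MAS5 and GCOS, per the submitters' processing notes; versions not given in the sources used here. Each array's mean after trimming 2% at each end was 100, so nothing further was scaled. Of 22810 probe sets, 64 controls were left out of the tests, and genes were named through the platform annotation (13513 probe sets with 1 gene, 503 with several, 8730 with none). With R 4.3.3 and limma 3.58.1, group means were fitted to log2(signal + 6.3) on all 14 arrays with an intensity trend, over 15605 probe sets with at least 2 arrays above 23; these are the 20th and 40th percentiles of all values. Tests were two-sided over 12 comparisons. The code was tested on simulated data. Same-numbered replicates did not deviate together: 3 of 31 pairs of arrays had a residual correlation over 0.1 (range -0.27 to 0.19).

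Named are the 5 members in every comparison, listed auxin and cytokinin genes called against control, and the 3 genes most like each member with a span of at least 1; other tested list genes and markers were named after their values were seen. The members and the 15 lists were chosen with earlier results of these data known. Alternatives were another pseudocount, filter, scaling and variance model, a replicate block, covariates of RNA quality, each time alone and leaving out arrays. Sequences of the 5 genes were not used here. Whether probes also read close relatives of a gene was not tested.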

Additional observations from a re-analysis of the deposited data

How the results depend on the processing

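Of 1530 values of the 5 genes under alternatives, 1487 kept their side of the threshold, 28 lost a call, 15 gained one and no called value changed direction; 69 values called in neither setting changed sign. DAO2 was called in 19, 19, 24 and 23 of 26 alternatives for estradiol 12 h, trans-zeatin 12 h, estradiol 24 h and trans-zeatin 24 h, and WES1 in 21 of 26 for estradiol 12 h; in the mean over comparisons each was called in 23 of 25. The difference of the DAO2 and DAO1 changes was 2.50 with a pseudocount of 1 and 2.41 after quantile normalization.

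In the order estradiol 12 h, trans-zeatin 12 h, estradiol 24 h, trans-zeatin 24 h and their mean, 2, 1, 1, 1 and 2 of the 5 genes were called, among 762, 1176, 595, 541 and 2596 probe sets. With the actin 3'/5' ratio as a covariate 0 genes were called in each, among 173, 130, 197, 78 and 246 probe sets; 1 was called between control times, 9 between estradiol times, 7 between trans-zeatin times and 2 between treatments at 24 h. With the mean 3'/5' ratio of 3 genes (chosen after seeing the data) 0 genes were called except 1 at estradiol 24 h, among 355, 112, 349, 176 and 420 probe sets; 14, 19, 19 and 2 were called in the other comparisons just named, 3 between treatments at 12 h, and 30 and 6 as estradiol and trans-zeatin effects that differed between times. With 25S rRNA, 521 were called for trans-zeatin 12 h, 11 between treatments at 24 h, 123 between control times and 19 as estradiol effects that differed. With only the arrays of one time, 0, 0, 2 and 2 genes were called in the 4 comparisons, among 332, 500, 1158 and 942 probe sets, and 61 between treatments at 24 h. Without both arrays that stood apart, 3, 2, 2 and 2 genes were called; probe sets called were 426, 939 and 822 at estradiol 12 h, estradiol 24 h and trans-zeatin 24 h, 2 and 18 between treatments at 12 h and 24 h, 121 and 106 between estradiol and trans-zeatin times, and 19 as estradiol effects that differed. Centring arrays on their median called 2 genes at trans-zeatin 12 h. It also moved the split of higher to lower probe sets from 356 and 239 to 471 and 155 at estradiol 24 h, from 335 and 206 to 434 and 160 at trans-zeatin 24 h, from 1117 and 1479 to 1393 and 1064 in the mean, and from 28 and 45 to 22 and 78 between control times. With no filter 48, 2 and 2 were called between control times and between treatments at 12 h and 24 h, without the intensity trend 46 between control times, and after quantile normalization 4 between treatments at 24 h.

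The replicate number as a block changed no call among the 5 genes; it called 20 probe sets between control times, 53 between estradiol times and 2 between treatments at 24 h. Since same-numbered arrays share only a number, the block is not a pairing.

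Leaving out 1 array gave 0 to 3, 0 to 2, 0 to 2 and 0 to 2 genes called, among 417 to 964, 264 to 1373, 198 to 732 and 164 to 658 probe sets, and 1448 to 2843 in the mean. The lowest counts came without control 12 h replicate 1, trans-zeatin 12 h replicate 2, estradiol 24 h replicate 2, trans-zeatin 24 h replicate 1 and control 24 h replicate 2. Between treatments 1 to 5 and 2 to 15 were called, between control, estradiol and trans-zeatin times 10 to 93, 21 to 102 and 10 to 128, and 3 to 20 and 0 to 1 as effects that differed between times. The cause of these changes was not tested. Where an arm was left with 1 array, that array is assumed to vary like the others. The number of arrays, 2 or 3 a group, limits precision, and the control arrays of DAO2 at 24 h lay near the low-signal limit.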
